A study of Drosophila melanogaster with 6 samples.

Results

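The genes described here are the 2 long non-coding RNAs of Drosophila dosage compensation, roX1 and roX2, and the 5 genes that encode the proteins of the MSL (male-specific lethal) complex, msl-1, msl-2, msl-3, mof and mle. They were taken by name from the gene column of both deposited tables and form 7 of 15904 loci. All 7 were found, all 7 were tested by the authors in both comparisons, and none was lost to a filter on low values. The RNA came from eye discs, the larval tissue that becomes the adult fly eye, of wandering larvae late in the third instar. There were 3 groups of 2 libraries, and each library was made from 30 pairs of discs. The control had the genotype w1118 with the driver sev-GAL4 over UAS-GFP, a group labelled RNAi carried in addition the hsromegaRNAi transgene, and a group labelled overexpression carried in addition the insertion EP3037.

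In flies, males carry a single X chromosome and raise its transcription. The MSL complex does this by binding along the male X and acetylating histone H4 at lysine 16, and the roX RNAs are its RNA part. In females, Sex-lethal protein blocks production of MSL2 protein, the complex does not form, and roX RNAs are scarce. The labels give no sex of the larvae, so the share of male discs in each library is unknown. The driver sev-GAL4 is active in a subset of retinal precursor cells only, so most cells of the disc carried the transgenes without the driver acting on them. The values are from whole discs, in which fewer cells of a type and less RNA per cell cannot be told apart.

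The authors' tables hold FPKM (fragment counts scaled to transcript length and to sequencing depth), pooled to a single value per group. There is no value per library, so no replicate spread can be given, and the sequencing depth is unknown. The targeted RNA Hsromega was at FPKM 202 in control discs, 204 in discs labelled RNAi and 376 in discs labelled overexpression, so it does not show a lower level under RNAi, and the groups are called by their labels throughout. All 12 eye disc markers were detected in all groups, with summed FPKM of 390.4 in control discs, 222 with the RNAi label and 207 with the overexpression label. Their median log2 fold was -1.27 for RNAi and -1.59 for overexpression. It was -0.62 and -0.96 once the trend of folds with transcript length, described below, was subtracted. Of these markers 2, gl and lz, were called lower in the overexpression comparison of the authors' deposited table. Markers of other tissues also moved. In the authors' deposited table, 3 of 5 salivary gland and 4 of 6 fat body markers were raised in discs labelled RNAi. Summed FPKM of the salivary gland list was 46.4 in control discs, 3171 in discs labelled RNAi and 79.3 in discs labelled overexpression. That of the fat body list was 39.2, 169 and 87.2. Of 5 gut markers, 3 were raised in discs labelled overexpression in the authors' deposited table, with a summed FPKM of 2.64, 4.16 and 153, and alphaTry was listed at 0 in discs labelled RNAi. The 5 muscle markers summed to 1424, 737 and 1382, and none was called. Sums of the 5 male germline markers were 4.78, 4.07 and 4.95, mostly from bam, at 3.25, 3.08 and 3.82. The markers aly, can and comr lay below FPKM 0.1 in all groups. The 3 yolk protein genes, markers of female fat body, summed to 2.06, 0.621 and 0.766. Of these, only Yp2 in control discs reached FPKM of 1. Sums this low do not give the sex of the larvae. Haemocyte markers summed to 15.0, 18.3 and 17.5 and brain neuron markers to 11.2, 6.30 and 4.95, and the neuron marker brp was called lower in both comparisons of the authors' deposited tables. The part of these markers in the results below was not tested.

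roX2 was the most abundant of the 7 genes and the one whose level differed most between the groups. It lies on the X chromosome (dm6, 11579065 to 11580432, plus strand) and is annotated as a non-coding RNA with 6 transcripts, the longest of 1368 nt. Its FPKM was 319 in control discs, 671 in discs labelled RNAi and 906 in discs labelled overexpression. The control was the lowest of the 3 values, and both treated groups stood above it. This is 210.3 percent of the control in discs labelled RNAi, a log2 fold of 1.07, for which the authors' deposited table gives q = 0.522. In the overexpression-labelled group it is 283.9 percent of the control, a log2 fold of 1.51, with q = 0.243 in the authors' deposited table. Neither difference passed the threshold of q = 0.05. The unadjusted p in the authors' deposited table was 0.131 for RNAi and 0.0373 for overexpression. The standard errors to which those p-values correspond were 0.71 and 0.72 on the log2 scale, and the 95% intervals ran from -0.32 to 2.46 for RNAi and from 0.09 to 2.92 for overexpression. Standard errors taken from the deposited statistic were larger, 0.94 and 0.96. With the larger error, the interval for overexpression would also hold values below the control.

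roX1, the longer of the 2 RNAs, differed less between the groups than roX2. It lies on the minus strand of the X (3857230 to 3862697), with 5 annotated transcripts, the longest of 4832 nt. FPKM was 173 in control discs, 214 in discs labelled RNAi and 197 in discs labelled overexpression. Control discs again had the lowest value, but all 3 values were close. The log2 fold was 0.31 for RNAi (95% interval -1.16 to 1.78) and 0.19 for overexpression (-1.28 to 1.66), with q = 0.976 and q = 0.992 in the authors' deposited table. Its last 392 bases overlap the gene ec on the opposite strand, and the sources used here do not say if counting used strand, so its value may hold some fragments of ec. The ratio of roX2 to roX1, both per length, was 1.85 in control discs, 3.14 in discs labelled RNAi and 4.60 in discs labelled overexpression. This ratio is not adjusted for the trend of folds with transcript length described below. With that trend subtracted, the log2 folds of roX2 and roX1 lay closer, at 0.93 and 0.78 for RNAi and 1.26 and 0.83 for overexpression. In males the 2 RNAs are largely redundant for compensation, although they share little sequence outside short repeats.

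**Figure D1:**
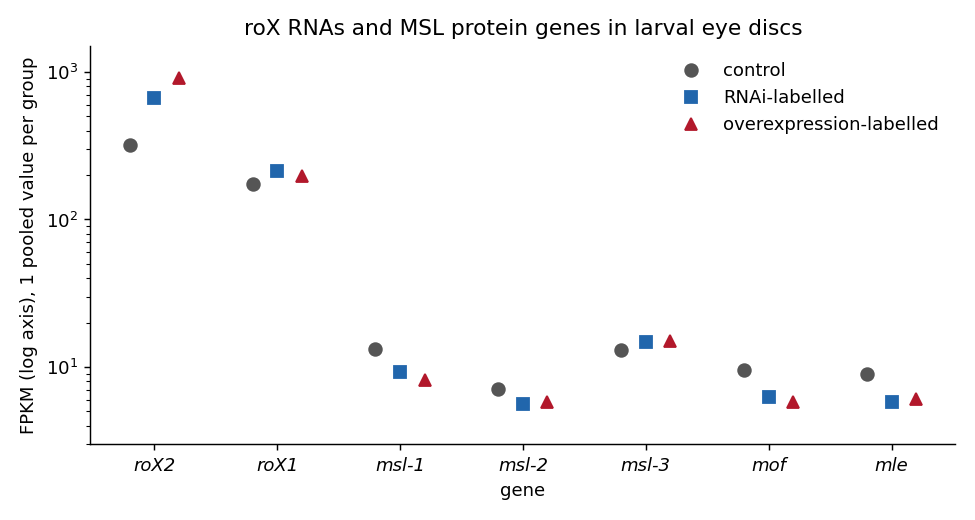
FPKM on a log axis of the 7 genes in control (circles), RNAi-labelled (squares) and overexpression-labelled discs (triangles), each point being the authors' pooled value of a group. The roX RNAs lie between 173 and 906, the 5 protein genes between 5.63 and 15.1, and roX2 is the gene with the widest spread between groups.

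The mRNAs of the 5 proteins were present at moderate levels in all groups. msl-1 (chromosome 2L, 18683720 to 18688800, minus strand) encodes the scaffold of the complex. It was at FPKM 13.3 in control discs, 9.32 in discs labelled RNAi and 8.13 in discs labelled overexpression, so that the control was highest. msl-2 (chromosome 2L, 3462218 to 3466112, minus strand) encodes the RING finger protein that is made in males only and starts assembly of the complex. Its locus, which the authors joined with mir-4971 inside it, was at 7.12, 5.63 and 5.84, the lowest level of the 7 in control discs. msl-3 (chromosome 3L, 7123213 to 7125533, minus strand) encodes the chromodomain protein that helps the complex spread onto active genes. It was at 13.0 in control discs, 14.7 in discs labelled RNAi and 15.1 in discs labelled overexpression, and was the single protein gene with both treated values above the control. Its end overlaps form3 on the other strand by 85 bases.

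mof and mle encode the enzymes of the complex. mof, the histone H4 lysine 16 acetyltransferase, is itself X-linked (5873840 to 5876853, minus strand) and was at FPKM 9.56 in control discs, 6.31 in discs labelled RNAi and 5.82 in discs labelled overexpression. mle (chromosome 2R, 5974857 to 5980778, minus strand), the RNA helicase that remodels roX RNA, was at 8.996, 5.76 and 6.06. For both genes the control was highest and the treated values lay near each other. Per length, the order in control discs was roX2, roX1, msl-1, msl-3, mof, mle and msl-2. Without a spread between libraries the neighbours msl-1 and msl-3, or mof and mle, cannot be ranked. The sum of both roX RNAs was 51.4 times the median of the 5 protein genes in control discs, 140.1 times in discs labelled RNAi and 182 times in discs labelled overexpression. These ratios too are not adjusted for the trend with transcript length. roX2 ranked 283 of 9529 loci with FPKM of 1 or more in control discs, 210 of 9245 in discs labelled RNAi and 186 of 9414 in discs labelled overexpression.

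No member passed the test in either comparison. The authors' deposited Cuffdiff table called 0 of 7 at q of 0.05 or less for RNAi, where 0.822 percent of all tested loci were called, and 0 of 7 for overexpression, where 1.2 percent were. At an unadjusted p of 0.05 or less the counts in the authors' deposited tables were 0 of 7 for RNAi, against 4.5 percent of all tested loci, and 1 of 7, roX2, for overexpression, against 6.16 percent. With Benjamini-Hochberg recomputed over the tested loci the count was 0 in both comparisons, where 0.124 percent of all tested loci were called for RNAi and 0 of 11372 for overexpression, so that no gene could be called there. With p taken from the deposited statistic it was also 0, where 0.141 and 0.0967 percent were called. The q-values of the 5 protein genes in the authors' deposited tables lay between 0.681 and 0.994 for RNAi and between 0.665 and 0.993 for overexpression. Of these genes, 4 of 5 had lower FPKM than the control in both treated groups, at 64.1 to 79.0 percent of the control for RNAi and 60.9 to 82.0 percent for overexpression. The median log2 fold of the 5 was -0.51 for RNAi and -0.57 for overexpression, and that of all 7 members was -0.34 and -0.29. Over all loci with FPKM of 1 or more in either group of a comparison, it was -0.04 and 0.03. The 95% interval of the log2 fold ran from -1.73 to 0.53 for mof and from -1.75 to 0.47 for mle in the RNAi comparison, so that a fall of several fold or a modest rise was not distinguishable from no change. For msl-2 it ran from -2.98 to 2.30. Standard errors taken from the deposited statistic were larger, from 0.79 for mle to 7.22 for msl-2 in that comparison.

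**Figure D2:**
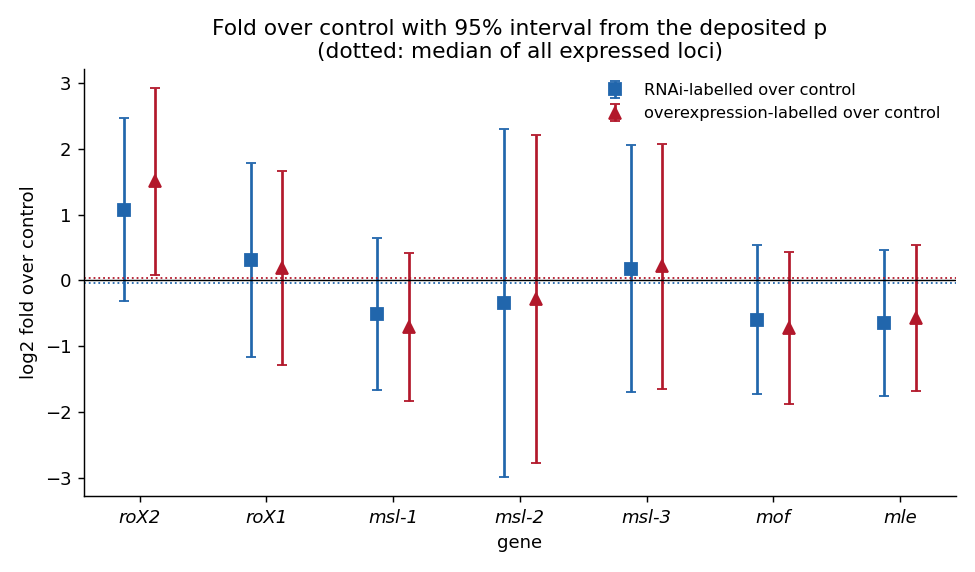
Log2 fold over control of the 7 genes for the RNAi-labelled (squares) and overexpression-labelled (triangles) groups, with 95% intervals from the deposited p. The dotted lines are the medians of all expressed loci, -0.04 and 0.03. The interval of roX2 for overexpression, 0.09 to 2.92, is the one that does not reach 0 before correction for multiple tests. It would reach 0 with the larger standard error taken from the deposited statistic, 0.96.

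Both treated groups were compared with the same control, so their folds are not independent. roX2 was 1.35 times as high in discs labelled overexpression as in those labelled RNAi, a log2 ratio of 0.43. The other 6 members had log2 ratios between -0.20, for msl-1, and 0.07, for mle.

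Folds in these tables followed transcript length, and the members' folds are given here beside that trend. The running median of the log2 fold along the longest annotated transcript stood at 0.14 for RNAi and 0.25 for overexpression at the length of roX2, and at -0.47 and -0.64 at that of roX1. Subtracting it left roX2 at 0.93 and 1.26 and brought roX1 to 0.78 and 0.83. The protein genes msl-1 and msl-2 lay on the trend, with -0.02 and -0.04 left for RNAi and -0.03 and 0.10 for overexpression. mle, at 4062 nt, kept -0.26 for RNAi and -0.10 for overexpression. mof kept -0.45 and -0.52, the lowest of the 7, and msl-3 kept 0.18 and 0.14. No member was called after this subtraction.

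**Figure D3:**
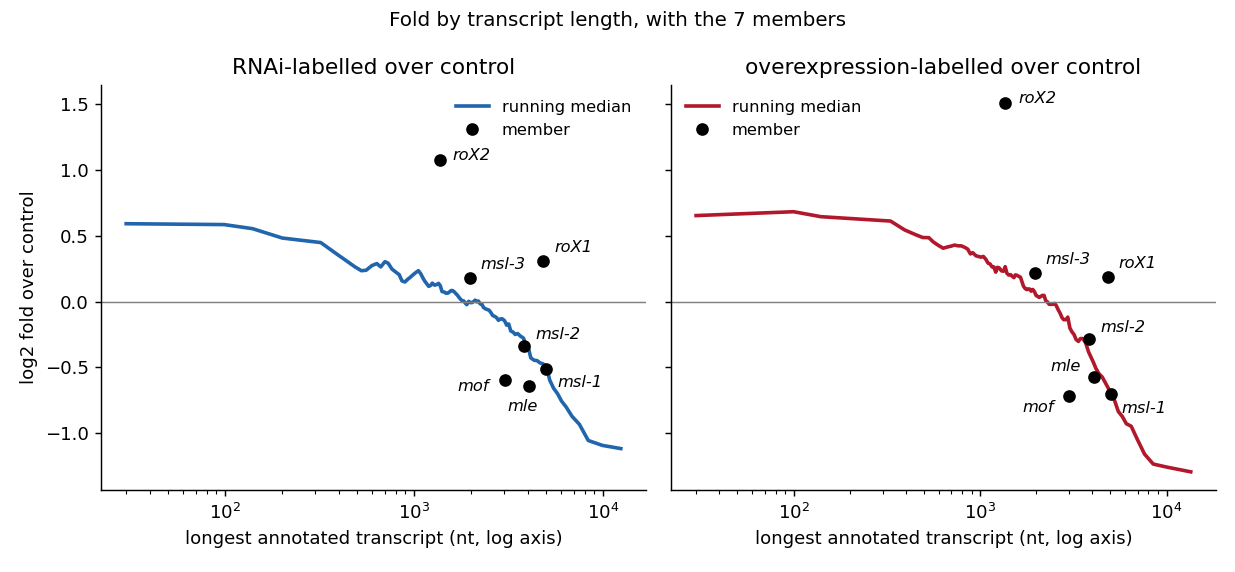
Log2 fold over control against the longest annotated transcript (nt, log axis) for RNAi (left) and overexpression (right). The lines are running medians over expressed loci and the points are the 7 members. Both roX RNAs lie above the line in both panels, roX2 by 0.93 and 1.26, and mof lies below it by 0.45 and 0.52. The line takes no account of FPKM.

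How common a fold like that of roX2 was depends on the loci it is set beside. These sets of loci were chosen after the values were seen. Of 9891 expressed loci, 392 had a larger log2 fold for RNAi (3.96 percent), and 194 of 9977 had one for overexpression (1.94 percent). On the X the shares were 2.45 and 1.19 percent. Among loci with a longest transcript of 1000 to 2000 nt they were 2.39 and 0.732 percent. Among loci with a control FPKM of 100 or more they were 5.31 and 2.39 percent, and among annotated non-coding RNAs of 500 nt or more 7.78 and 4.82 percent. Of snoRNA and snRNA loci, 29.2 and 19.3 percent had a larger fold than roX2, and the median log2 fold of these loci was 0.67 for RNAi and 0.78 for overexpression. Folds larger than that of roX1 were common, in 24.8 and 40.0 percent of all expressed loci. Among loci with a control FPKM of 100 or more the shares above roX1 were 42.0 and 57.8 percent. The median log2 fold of those abundant loci was 0.22 for RNAi and 0.28 for overexpression.

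The loci nearest to roX2 in the pair of folds were mostly small structured RNAs. Among 6837 single-gene loci with FPKM of 5 or more in a group, the 5 nearest were snoRNA:Psi28S-3091b, snRNA:U4:25F, snoRNA:Me18S-A1061, snoRNA:U49:66Da and the non-coding RNA CR44268, at distances of 0.04 to 0.11 on the log2 scale. The nearest, a pseudouridylation guide of 133 nt, was at FPKM 300.3 in control discs, 631 in discs labelled RNAi and 829 in discs labelled overexpression. The 4 snoRNA and snRNA loci have longest transcripts of 76 to 148 nt, and none of the 5 loci is X-linked. The 5 nearest to roX1 were Lis-1, CG4645, dnt, CG9590 and mbf1, at distances of 0.0039 to 0.015. Lis-1, a dynein regulator, was at 58.8, 72.6 and 67.1. A likeness over 2 folds that share a control is a description only.

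None of the genes beside the roX loci was called, where 0.822 percent of all tested loci were for RNAi and 1.2 percent for overexpression. A count of 0 over so few loci is near those shares and is no result about them. Within 20 kb of roX2 lie 11 loci with a deposited value, of which 10 reached FPKM of 1 in a group and CG11697 did not. CG11695, which ends 0.259 kb before roX2, was at FPKM 5.54 in control discs, 4.05 in discs labelled RNAi and 3.15 in discs labelled overexpression. The kinesin gene nod, which starts 0.34 kb after it, was at 8.43, 7.72 and 9.23. RpII215, the gene of the largest subunit of RNA polymerase II, was at 36.8, 19.2 and 15.8, and PGRP-SA, a receptor of the Toll immune pathway, at 72.7, 121 and 95.5. The others, the locus of CR44266 with Kmn1, CG11699, CG11696, e(y)2, CG1561 and rho-4, had log2 folds between -1.02 and 0.51. Beside roX1, ec, which overlaps it, was at 49.5, 13.4 and 10.9, with q = 0.724 and q = 0.675 in the authors' deposited table. yin, 0.269 kb away, was at 2.95, 2.79 and 3.23, CG2930 at 3.53, 4.26 and 3.94, and VhaAC39-1, a proton pump subunit, at 48.9, 58.4 and 57.5. With the length trend subtracted, RpII215 kept log2 folds of -0.08 and -0.20, and ec -0.99 and -1.16.

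Genes of 4 lists tied to dosage compensation or sex determination are called partner genes here, though not all act with the complex. Most were lower in the treated groups, and few passed the test. The sex determination list was near even, with 6 above and 7 below the control in each comparison. Over 4 lists of 49 loci without the members, 48 were tested in each comparison. The authors' deposited Cuffdiff table called 0 for RNAi, against 0.61 percent of all tested loci called lower and 0.212 percent called higher. For overexpression it called 2, both lower, against 1.06 percent called lower and 0.132 percent called higher. At an unadjusted p of 0.05 or less there were 3 and 9 of the 48 in the authors' deposited tables, all lower than the control, where 4.5 and 6.16 percent of all tested loci passed in either direction. The RNAi count is near that share. Of 47 expressed partner loci, 74.5 percent had a fold below 0 for RNAi and 63.8 percent for overexpression, where the shares over all expressed loci were 52.9 and 48.2 percent. Their median log2 fold was -0.46 and -0.68, and -0.12 and -0.15 after the length trend was subtracted.

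The 2 partner genes called lower in the overexpression comparison of the authors' deposited table were nsl1 and CG7358. nsl1 encodes the scaffold of the NSL complex, the other complex that holds MOF and binds promoters on all chromosomes in both sexes. It was at FPKM 22.0 in control discs, 6.83 in discs labelled RNAi and 4.91 in discs labelled overexpression, and fell by 2.16 on the log2 scale under overexpression, with q = 0.0429 in the authors' deposited table. CG7358, annotated as Flacc, belongs to the RNA methyltransferase complex that Sxl splicing needs. It is X-linked and was at 14.3, 4.20 and 2.65, and fell by 2.43 under overexpression, with q = 0.0230 in the authors' deposited table. For RNAi the authors' deposited table gives q = 0.142 for nsl1 and q = 0.145 for CG7358. The log2 fold was -1.96 for nsl1 and -2.06 for CG7358 with pseudocount 1, and -1.24 and -1.92 after the length trend was subtracted. With p rescaled to these folds neither gene was called. All of them are smaller falls than those reported, so the rescaling could only raise p. Neither was called with p from the statistic, nor with Benjamini-Hochberg recomputed, where 0 of 11372 loci were. Whether the 2 treated groups differ in these genes was not tested.

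All 6 NSL genes lay below the control for RNAi and 5 of 6 for overexpression, with medians of -0.62 and -0.93 and 1 call among 6 tested, nsl1. Subtracting the length trend took the NSL medians to -0.52 and -0.83. MBD-R2, a methyl-binding domain subunit, was at FPKM 16.3, 8.80 and 7.51. Rcd5 was at 19.2, 11.2 and 9.61, and the WD40 gene wds, which is X-linked, at 23.4, 17.0 and 12.8. Among 16 chromatin factors tied to the complex or to the structure of the male X there was no call. This is near the shares over all tested loci, 0.822 percent for RNAi and 1.2 percent for overexpression. The medians of these 16 genes were -0.28 and -0.21, and -0.06 and 0.01 after the length trend was subtracted. For RNAi 12 were below and 4 above the control, and for overexpression 9 were below and 7 above. Clamp, the zinc finger protein that leads the MSL complex to GA repeats, was at 43.0, 45.2 and 44.1, close to even over the 3 groups. JIL-1, the histone H3 kinase enriched on the male X, was at 13.4, 6.76 and 6.27. pzg, a zinc finger partner of the NURF remodeller, was at 53.6, 26.2 and 19.97, and the DEAD-box helicase gene Rm62 at 272, 127 and 98.2. With the length trend subtracted, JIL-1 kept log2 folds of -0.12 and -0.09, pzg -0.63 and -0.94, and Rm62 -0.65 and -0.92. The locus of Trl, the GAGA factor, was joined with CG33260 and CG42507 and was at 77.4, 37.1 and 35.4.

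Genes that hold msl-2 off in females or act on Sxl had medians of -0.54 for RNAi and -0.92 for overexpression over 13 loci, with 1 call, CG7358. The Sxl locus, joined with mir-4956, was at FPKM 90.2 in control discs, 50.0 in discs labelled RNAi and 43.1 in discs labelled overexpression. A value per gene does not separate its male and female splice forms. Unr, which represses msl-2 translation with Sxl, was at 20.7, 9.64 and 7.76. The methyltransferase subunit gene vir was at 9.46, 4.37 and 3.21, and YT521-B, the nuclear reader of its mark, at 26.6, 9.84 and 7.55. Subtracting the length trend took the medians of this list to -0.13 and -0.17. Of 14 tested sex determination genes none was called, which is near the shares over all tested loci, 0.822 and 1.2 percent. Medians of that list were -0.14 and -0.00089, and -0.13 and -0.06 after the length trend was subtracted. The gene fru was at 13.2, 2.98 and 5.52, and the authors' deposited table gives q = 0.0520 in the RNAi comparison. The Sxl activator gene da was at 28.9, 16.2 and 12.7, the corepressor gene gro at 45.4, 17.1 and 12.8, and the X-linked runt gene run at 1.81, 0.658 and 0.422.

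**Figure D4:**
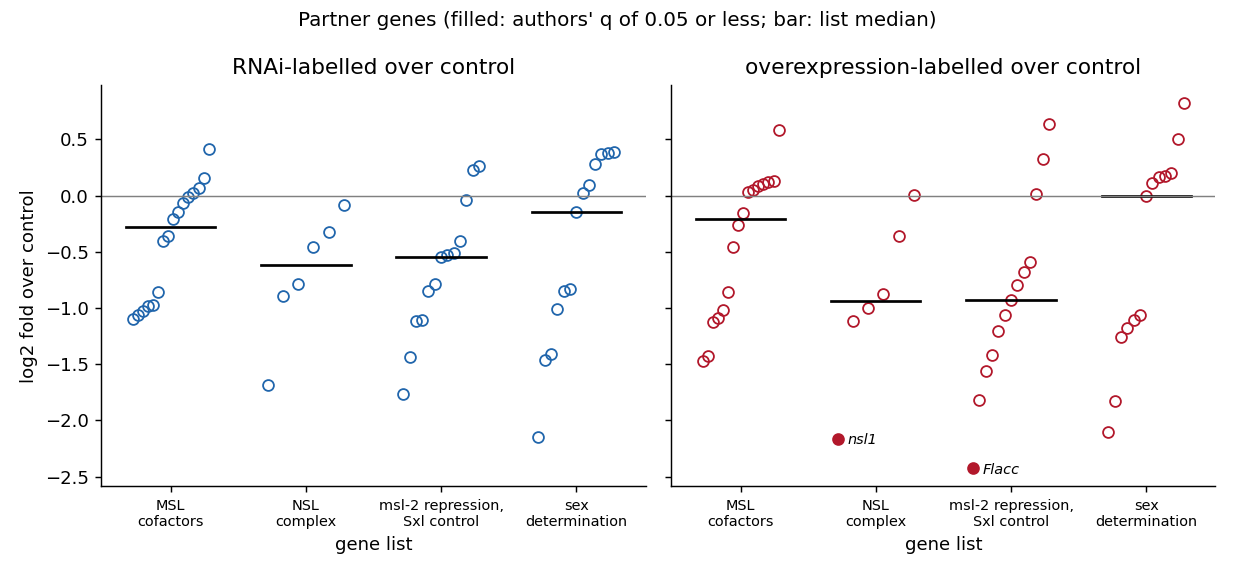
Log2 fold over control of partner genes with FPKM of 1 or more, by list, for RNAi (left) and overexpression (right). Filled points passed the authors' q of 0.05 and bars are list medians. The filled points are nsl1 at -2.16 and Flacc (CG7358 in the tables) at -2.43.

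Since the complex acts on the X, the level of X-linked genes was set beside that of the autosomes as a description. In the control, the median FPKM of 1621 X-linked loci was 11.6 and that of 8437 loci on arms 2L, 2R, 3L and 3R was 10.9. In the RNAi-labelled group the medians were 8.46 and 9.49, and in discs labelled overexpression 7.66 and 9.48. The X was thus above the autosomes in control discs and below them in both treated groups. On the scale of log2(FPKM + 0.1), the median fold of 1592 expressed X-linked loci for RNAi was -0.21, with quartiles of -0.80 and 0.17, against -0.02 for the autosome arms. For overexpression it was -0.20 on the X, with quartiles of -0.87 and 0.28, against 0.07. Of X-linked loci, 63.1 percent were lower than the control for RNAi and 61.0 percent for overexpression, where 51.2 and 46.0 percent of autosomal loci were. The medians of the 4 autosome arms lay between -0.03 and 0.02 for RNAi and between 0.03 and 0.12 for overexpression.

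The lower X median was seen along the whole chromosome but not evenly over genes. In all 5 windows of 5 Mb the median lay below that of the autosomes, at -0.30 to -0.14 for RNAi and -0.33 to -0.10 for overexpression. Expressed X-linked loci were longer, with a median longest transcript of 2116 nt against 1796 nt for RNAi, and subtracting the length trend brought the difference between X and autosomes from -0.20 to -0.11 for RNAi and from -0.27 to -0.14 for overexpression. When loci were split into 3 equal classes by length, the difference was -0.30 for RNAi and -0.34 for overexpression in the longest class and -0.07 in the shortest class for both. In 3 classes by mean FPKM it was -0.05 and -0.07 in the highest class and -0.30 and -0.35 in the lowest. Of the 3 X-linked members, mof, at -0.60 and -0.72, lay below the X median of -0.21 and -0.20, and roX1, at 0.31 and 0.19, and roX2, at 1.07 and 1.51, lay above it.

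At the deposited q, called loci were mostly lower than the control, on the X and on the autosome arms. The authors' deposited table called 16 of 1794 tested X-linked loci for RNAi, all lower (0.892 percent), where 0.562 percent of the tested loci on the autosome arms were called lower (53 loci) and 24 loci higher. For overexpression it called 38 of 1803 lower (2.11 percent), and 1 higher, where 0.876 percent were called lower on the autosome arms (83 loci) and 14 loci higher. These calls rest on the deposited q. With Benjamini-Hochberg recomputed, 1 X-linked locus was called for RNAi and 0 for overexpression, and with p from the statistic 0 in both. On the autosome arms, recomputed Benjamini-Hochberg called 13 for RNAi, 8 higher and 5 lower, and 0 for overexpression. With p from the statistic, 16 were called there for RNAi, 13 higher and 3 lower. For overexpression it was 10, 8 higher and 2 lower. On these arms the lean towards lower calls thus held only at the deposited q. The loci of a chromosome are not independent replicates, and no test of the X against the autosomes was made. Expressed loci of the fourth chromosome, which is bound by the protein Pof and not by the MSL complex, had median folds of 0.32 for RNAi over 93 loci and 0.50 for overexpression over 91. The Pof gene itself was at FPKM 9.997 in control discs, 9.05 in discs labelled RNAi and 10.6 in discs labelled overexpression.

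**Figure D5:**
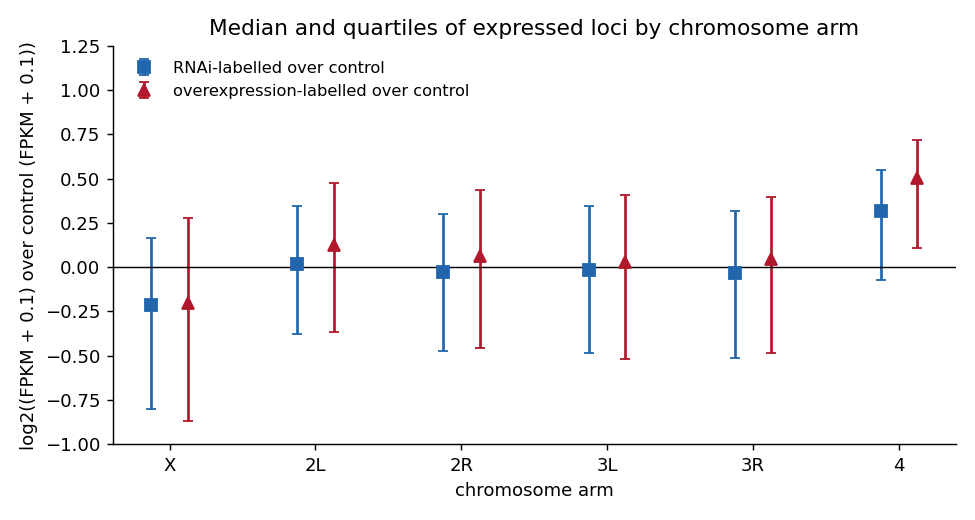
Median (points) and quartiles (bars) of the log2 fold over control, computed on FPKM + 0.1, of expressed loci on each chromosome arm for RNAi (squares) and overexpression (triangles). The X has the lowest median of the 6 in both comparisons, -0.21 and -0.20, and chromosome 4 the highest, 0.32 and 0.50.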

How the data were processed

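RNA from 6 eye disc libraries was sequenced with paired 50 nt reads, 2 lanes a library, after a stranded total RNA kit with ribosomal RNA depletion, per the labels' protocols. Mapping and counting used Bowtie, TopHat, Cufflinks and Cuffdiff 2.1.1 with dm6, per the submitters' processing notes. The sources used here give no annotation or settings. The authors deposited 1 pooled FPKM value per group, and 637 loci join several genes. The test statistic, a score, and the p-value and q-value are those of the authors' deposited Cuffdiff tables, and a gene was called at q of 0.05 or less. The deposited q lies below the Benjamini-Hochberg value over the tested loci for 11311 of 11314 loci for RNAi and 11342 of 11372 for overexpression, and the sources used here do not say over which tests it was adjusted. With the adjustment recomputed, 14 and 0 loci are called in place of 93 and 136. No label says that replicate libraries come from separate pools of larvae, so p-values may measure technical spread. The planned limma fit needs values per library and was not run.

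Computed here were log2 folds of treated over control from the FPKM, with no pseudocount for single genes and 0.1 for lists, arms and ranks, over loci with FPKM of 1 or more in a group of the comparison. Signs in the overexpression table, which lists treated discs before control, were reversed. A standard error was taken as the fold over the normal score of the deposited p. Transcript lengths and 1-based coordinates are from Ensembl 115 (dm6), which matched 99.4 percent of loci. The length trend is a running median of 250 loci on each side, and was tested on simulated data. Under another fold, the deposited p was rescaled and called at the largest p the authors called, 0.00395. Python 3.11.15, pandas 2.3.3, numpy 2.4.6 and scipy 1.17.1 were used. Members and gene lists were chosen with earlier results of these data known. Named are the members, of each partner list the genes called and the 4 with the smallest p, genes within 20 kb of a roX gene, and the 5 loci nearest to each roX RNA in their folds. Clamp, Sxl and Pof were named after their values were seen.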

Additional observations from a re-analysis of the deposited data

How the results depend on the processing

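No paired analysis was possible because the tables hold a single pooled value per group, and for the same reason no library could be left out. The count of called members was 0 in both comparisons under recomputed Benjamini-Hochberg, p from the statistic, recentred folds, the length trend subtracted and pseudocount 1. For the partner lists the count was 0 for RNAi under the same settings. For overexpression it went from 2 to 0 under recomputed Benjamini-Hochberg, p from the statistic, the length trend and pseudocount 1, and stayed at 2 with recentred folds. Counts of called loci fell from 16 to 1 on the X and from 77 to 13 on the autosome arms for RNAi under recomputed Benjamini-Hochberg, and from 39 and 97 to 0 and 0 for overexpression. With p from the statistic they were 0 and 16 for RNAi and 0 and 10 for overexpression. These settings for the X and the arms were added after seeing the data. Where the fold changed, the deposited p was rescaled to it. Of the members' folds, that of msl-2 for overexpression changed sign, from -0.29 to 0.10, when the length trend was subtracted. The X minus autosome median for RNAi was -0.20 as reported, -0.17 with pseudocount 1, -0.14 with no filter on low values, -0.18 at FPKM of 5 or more, -0.199 over single-gene loci and -0.11 after the length trend. For overexpression it was -0.27 as reported, -0.23, -0.066, -0.24, -0.27 and -0.14 under the same settings, and was smallest with no filter; the cause was not tested. Of the members, 4 of 7 were higher in the overexpression-labelled than in the RNAi-labelled group, also after recentring, a setting chosen after seeing the data. Depth per library is unknown, which limits how small a difference can be detected.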
